A study of Homo sapiens with 12 samples.

Results

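The proteasome genes described here were the 48 genes whose symbol is PSM followed by a letter from A to G and a number. All 48 had a row in both deposited expression tables, among 55514 gene rows in the first and 44389 in the second. By role they comprised 14 core particle subunits, 17 regulatory particle subunits, 5 immunoproteasome genes (PSMB8, PSMB9, PSMB10, PSME1 and PSME2), 7 assembly chaperones, 3 further activators or regulators (PSME3, PSME4 and PSMF1) and 2 other core forms (PSMA8 and PSMB11). Of the 48, 47 had a mean TPM (length-corrected transcript abundance) of 1 or more and so were tested, in either table. The exception was PSMB11, the subunit of the thymic epithelial proteasome.

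The study profiled RNA from Jurkat cells, an established leukaemic T cell line, with or without expression of ZNF683, the gene of the transcription factor Hobit. The first table held 3 libraries whose genotype is given as doxycycline-induced ZNF683 and 3 Mock libraries, whose doxycycline exposure is not given. The second table held 3 libraries of the Hobit line labelled Dox+ and 3 labelled Dox-, with doxycycline stated at 1 ug/uL. All 12 libraries were total RNA from Jurkat cells grown in RPMI with serum, with no statement on clonality of the line or on separate cultures. The p-values therefore reflect library-to-library spread, which may be technical. In Dox+ against Dox- on TPM as deposited, that spread was the one common to genes of similar level, not each gene's own.

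The proteasome is the main protease for proteins tagged with ubiquitin. Its barrel-shaped core holds the catalytic beta subunits PSMB5, PSMB6 and PSMB7, and the regulatory particle, made of a base with AAA ATPases and a lid, binds, unfolds and admits the substrate. In lymphoid cells, and elsewhere under interferon gamma, PSMB8, PSMB9 and PSMB10 replace the catalytic subunits to form the immunoproteasome, and PSME1 with PSME2 forms the PA28 activator; both are known for supplying peptides to MHC class I.

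Short promoter stretches of the immunoproteasome genes are shown because a response element for interferon is a known feature of such genes. Of the 48 genes, 42 had a promoter entry in RefSeq (GRCh38.p14), which spans 250 bases before to 50 after a gene's start, and 6 motifs were searched on both strands. The core of the interferon-stimulated response element, GAAA repeated after any 2 bases, was found for 4 of 5 immunoproteasome genes and 0 of 16 regulatory particle genes. It was also found for 2 of 10 core genes (PSMB4 and PSMA4) and 1 of 6 assembly chaperone genes (PSMG4). A gene can have several entries. Counted by entry, these were 4 of 6, 0 of 18, 2 of 14 and 1 of 7, against 3.57% of all 35116 promoter entries. The 30-base stretches below run 5′ to 3′ on the gene's strand, with the match in capitals; a match that reads TTTC lies on the opposite strand. The motif and the stretches were chosen after the counts were seen, and a match describes letters only.
PSMB8, chr6:32844032-32844061, minus strand: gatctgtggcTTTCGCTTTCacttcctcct
PSMB10, chr16:67936852-67936881, minus strand: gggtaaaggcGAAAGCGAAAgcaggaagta
PSME1, chr14:24136189-24136218, plus strand: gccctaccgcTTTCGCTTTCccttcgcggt
PSME2, chr14:24146619-24146648, minus strand: cctggggagtGAAAGCGAAAgcccgggcga

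The PSMB8 match spans the gene's start, the PSME1 match lies just after it, and those of PSMB10 and PSME2 lie just before it. The PSMB9 window held no match, and that of its neighbour TAP1, a subunit of the peptide transporter, held 2 overlapping ones. TGACNNNGC, the core of the antioxidant response element, which NFE2L1 also binds, was found for 15 of 42 PSM genes. It was in 29.4% of their 51 entries and in 13.3% of all promoter entries. TTCNNNGAA, the core of the interferon gamma activated site, was found for 8 of 42 genes (15.7% of their entries) and in 7.66% of all entries. A GC-rich pair, CCGCC repeated after any 4 bases, was found for 2 of 42 genes (3.92% of their entries) and in 5.06% of all entries. A longer form of the antioxidant response element and GGTGGCAAA, known from yeast proteasome genes, were found for 0 of 42 genes. They were in 0.154% and 0.225% of all entries.

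ZNF683 itself measured 1.17, 1.76 and 1.04 TPM under the ZNF683 label and 0.715, 1.59 and 0.681 TPM in Mock, so the labelled groups overlapped (log2 change 0.24 ± 0.21 SE, adjusted p = 0.611, limma). It measured 0.453, 0.774 and 0.571 TPM in Dox+ and 0.115, 0.239 and 0.451 TPM in Dox-, too low to be tested, with Dox+ above Dox- by a narrow margin. The group names below are therefore the labels' names, and every direction is between libraries so labelled. The 10 Jurkat and T cell markers were all at 1 TPM or more in all 12 libraries. Of 10 markers of other cell types 2 to 4 reached 1 TPM, with PECAM1 among them in every library. The deposited tables give no read counts, so depth is unknown. In the second table Dox- 1 had 50.7% of its TPM in 1 gene, AL135790.1, and Dox- 2 correlated least with the rest (down to 0.898) and had HSPA6, an inducible HSP70, at 637 TPM against at most 0.351 TPM elsewhere.

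The PSM genes together took 1.27% to 1.5% of TPM in the first table and 0.572% to 1.42% in the second. Their order was alike in both (Spearman correlation of mean levels 0.983 over 47 genes, which share the annotation and the line). TPM is per transcript length, so levels can be set side by side. The alpha ring subunits PSMA6, PSMA4 and PSMA7 held the top 3 ranks in both tables, with PSMA6 highest in the first table at 1018 TPM on average and PSMA7 highest in the second at 939 TPM. Core subunits had a median of 455 TPM in the first table, regulatory particle subunits 233 TPM, immunoproteasome genes 218 TPM and assembly chaperones 112 TPM. In the second table these medians were 362, 173, 158 and 86.5 TPM. PSME4, which encodes the PA200 activator, was the lowest gene tested, at 6.55 and 7.54 TPM, and PSMB11 averaged 0.0720 and 0.00101 TPM.

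No PSM gene passed the threshold of 0.05 on the adjusted p in the libraries labelled ZNF683 against Mock (smallest adjusted p = 0.346, limma on log2(TPM + 1)), where 0.0301% of all 16588 genes tested did. The regulatory particle genes had the highest values, with 17 of 17 above zero and a median log2 change of 0.28, against 0.03 over all genes. The core had 11 of 14 above zero and a median of 0.06. The 5 immunoproteasome genes were all slightly below zero on deposited TPM, with a median of -0.06, and 2 of them above it with median-of-ratios scaling. Over all 47 genes, 36 were above zero, with a median of 0.15, which was 0.07 without ZNF683 2. The core median was 0.10 without ZNF683 1 and 0.09 without Mock 3, and the immunoproteasome median was -0.0018 without Mock 1 and -0.03 without ZNF683 1. Unadjusted p was under 0.05 for 4 genes, all higher (PSMC3, PSMC4, PSMC5 and PSMD12), where 6.55% of all genes were so called.

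**Figure D1:**
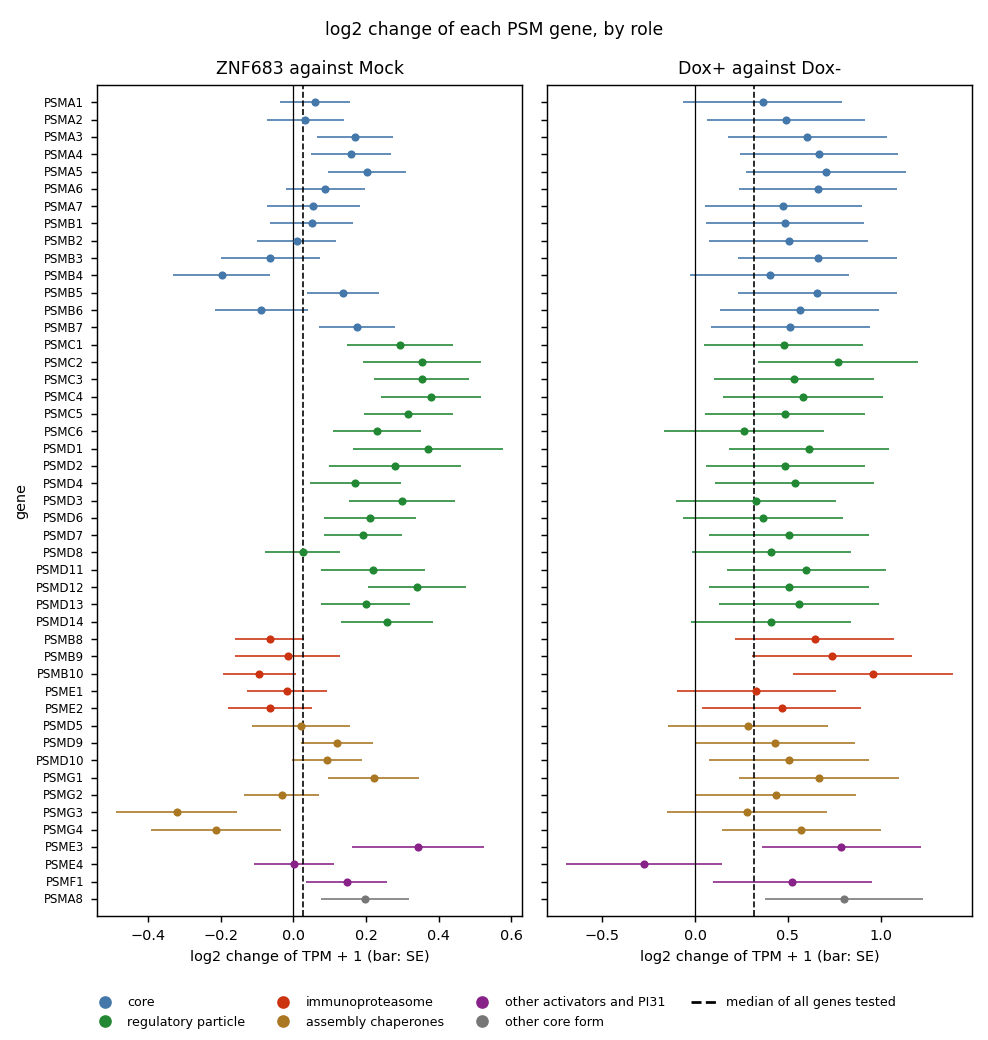
log2 change of TPM + 1 (x axis) for each of the 47 tested PSM genes (y axis), coloured by role, in both comparisons; points are estimates, bars 1 SE, the dashed line is the median of all genes tested. All 17 regulatory particle genes lay above zero and all 5 immunoproteasome genes slightly below it in ZNF683 against Mock (3 of 5 with median-of-ratios scaling), and 46 of 47 genes lay above zero in Dox+ against Dox-, where the median of all genes was 0.32.

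Groups did not overlap, with all libraries labelled ZNF683 above all Mock libraries, for 4 of 47 genes, against 8.71% of all genes, and the reverse held for 0 of 47, against 8.51%. With the libraries rescaled by the median of ratios, 8 of 47 genes were higher without overlap, where 11.8% of all genes were. PSMA5, an alpha ring subunit, was one of the 4, at 162, 174 and 158 TPM against 143, 130 and 156 TPM (log2 change 0.20 ± 0.11, adjusted p = 0.432, limma). The lowest library labelled ZNF683 stood just above the highest Mock library. PSMC5, an ATPase of the base, measured 364, 413 and 335 TPM against 281, 281 and 329 TPM (0.32 ± 0.12, adjusted p = 0.358, limma). The third library of each label again lay closest to the other group. The other 2 were PSMB7, given below, and PSMD9, a chaperone of the base, at 110, 128 and 113 TPM against 107, 108 and 107 TPM (0.12 ± 0.10, adjusted p = 0.571, limma).

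Among the ATPases of the base the largest change was that of PSMC4, at 242, 253 and 206 TPM under the ZNF683 label and 166, 162 and 212 TPM in Mock (0.38 ± 0.14, adjusted p = 0.346, limma). The groups overlapped, because Mock 3 was above ZNF683 3. PSMD1, a scaffold of the base, measured 206, 163 and 128 TPM against 111, 111 and 161 TPM (0.37 ± 0.21). PSMD12, a lid subunit, measured 165, 161 and 137 TPM against 110, 113 and 143 TPM (0.34 ± 0.13, adjusted p = 0.365, limma). In both, Mock 3 was above ZNF683 3. PSMD8, another lid subunit, had the smallest change of the particle, 0.03 ± 0.10.

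Within the core, all 7 alpha ring genes were above zero, from 0.03 for PSMA2 to 0.20 for PSMA5. PSMA6, the gene with the highest level, measured 975, 1104 and 1069 TPM against 998, 968 and 993 TPM (0.09 ± 0.11). Of the 4 beta subunits without an active site, PSMB4 had the largest change and was lower, at 282, 325 and 274 TPM against 291, 384 and 339 TPM (-0.20 ± 0.13, adjusted p = 0.508, limma). Both of these groups overlapped.

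The regulatory particle's offset from the core differed by library. The mean deviation of its 17 genes minus that of the 14 core genes, on the log2 scale, was 0.27, 0.16 and -0.11 in the libraries labelled ZNF683 and -0.23, -0.13 and 0.04 in Mock. The first 2 libraries of each label stood apart, and Mock 3 was above ZNF683 3. Transcript length moved with it. The median deviation of all genes with transcripts of 2000 to under 5000 nt minus that of genes under 1000 nt was 0.24, 0.21 and -0.09 in the libraries labelled ZNF683 and -0.19, -0.23 and 0.01 in Mock. The longest transcript had a median of 1991 nt among regulatory particle genes, 1012.5 nt in the core and 1218 nt among immunoproteasome genes.

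Across genes, the log2 change and transcript length had a Spearman correlation of 0.42 over the 47 PSM genes and 0.22 over 15819 genes; genes share libraries, so these describe the table. With each library's length trend removed, an alternative chosen after seeing the data, the regulatory particle had a median of 0.20 with 17 of 17 above zero, and the core 0.09 with 12 of 14. The part of transcript length in the difference was not tested beyond this.

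**Figure D2:**
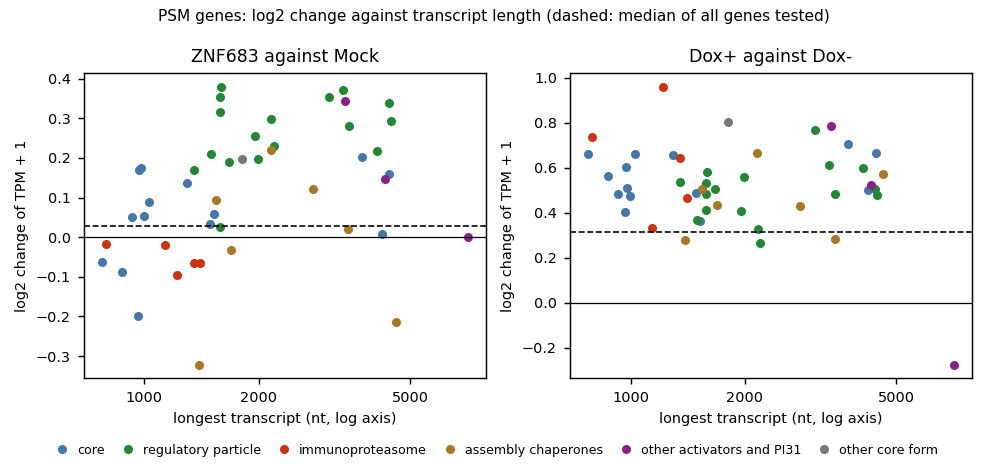
log2 change of TPM + 1 (y axis) against the longest annotated transcript of each tested PSM gene (x axis, log scale, nt), coloured by role; the dashed line is the median of all genes tested. In ZNF683 against Mock longer genes tend to lie higher (Spearman 0.42, 47 genes), with exceptions such as PSMC4 (1591 nt, 0.38) and PSMB2 (4217 nt, 0.0090), and no such order is seen in Dox+ against Dox- (Spearman -0.06).

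The catalytic subunits and their inducible replacements showed small differences between the libraries labelled ZNF683 and Mock. PSMB5, the constitutive chymotrypsin-like subunit, measured 218, 242 and 234 TPM against 211, 198 and 222 TPM (0.14 ± 0.10, adjusted p = 0.537, limma), with a slight overlap. PSMB8, which replaces it, measured 205, 225 and 211 TPM against 222, 228 and 220 TPM (-0.07 ± 0.09, adjusted p = 0.751, limma). ZNF683 2 lay within the Mock range and the other 2 below it.

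PSMB6, the constitutive caspase-like subunit, measured 466, 555 and 579 TPM against 623, 549 and 527 TPM (-0.09 ± 0.13). PSMB9, which replaces it, measured 157, 182 and 215 TPM against 207, 187 and 164 TPM (-0.02 ± 0.14), and both genes' groups overlapped. PSMB7, the constitutive trypsin-like subunit, measured 432, 483 and 444 TPM against 404, 378 and 421 TPM (0.18 ± 0.10, adjusted p = 0.467, limma), without overlap. PSMB10, which replaces it, measured 126, 142 and 134 TPM against 153, 138 and 138 TPM (-0.09 ± 0.10, adjusted p = 0.666, limma). ZNF683 2 was above 2 of the 3 Mock libraries.

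PSME1, PA28 alpha, measured 372, 406 and 404 TPM against 436, 397 and 366 TPM (-0.02 ± 0.11). PSME2, PA28 beta, measured 543, 569 and 609 TPM against 654, 547 and 602 TPM (-0.06 ± 0.11), and both overlapped. The sign of this set depended on scaling: on deposited TPM 0 of 5 were above zero, but median-of-ratios scaling gave 2 of 5, as did removal of the length trend (PSMB9 and PSME1 in both cases). The median of all genes was 0.03 on deposited TPM and 0.07 with median-of-ratios scaling. Against it, 0 of 5 were higher on either scale.

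**Figure D3:**
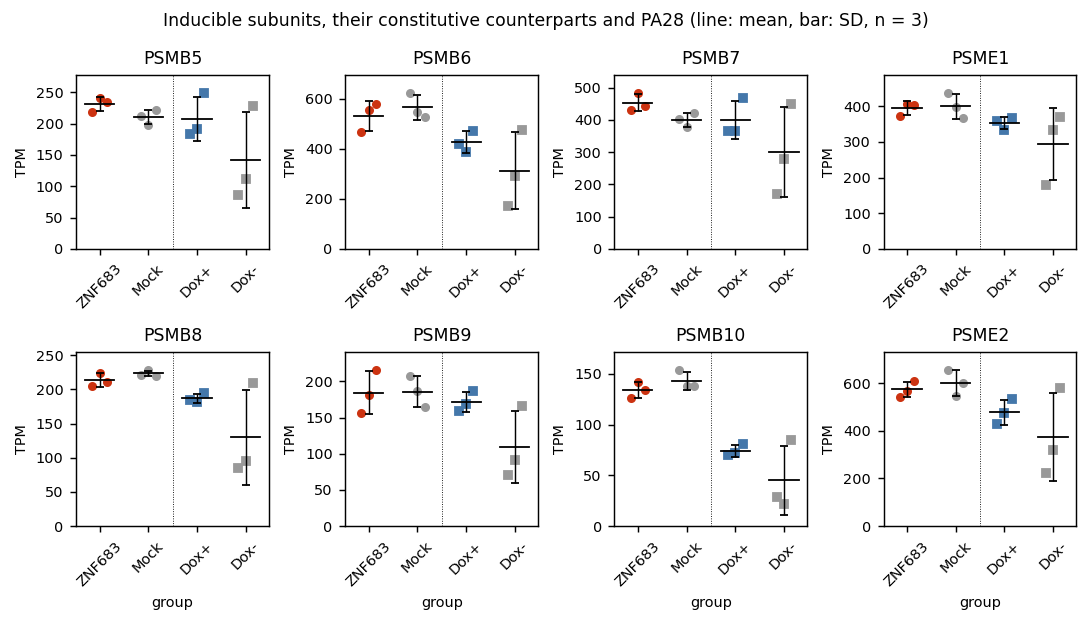
TPM (y axis, from 0) of PSMB5, PSMB6, PSMB7, their inducible replacements PSMB8, PSMB9 and PSMB10, and PSME1 and PSME2 in the 4 groups (x axis); points are libraries, lines means and bars SD, n = 3, and the dotted line parts the 2 tables. Dox- spreads most, with Dox- 3 among or above the Dox+ libraries for most of these genes.

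Ratios within a library do not depend on its scaling. The ratio of PSMB8 to PSMB5 was 0.937, 0.930 and 0.902 in the libraries labelled ZNF683 and 1.05, 1.15 and 0.994 in Mock, lower without overlap. PSMB10 to PSMB7 was 0.292, 0.294 and 0.301 against 0.380, 0.365 and 0.328, also lower without overlap. These are 2 of 4 ratios described, and 11.6% of all 1081 pairs of tested PSM genes had ratios without overlap in either direction. PSMB9 to PSMB6 (0.337, 0.327 and 0.372 against 0.332, 0.340 and 0.312) overlapped. PSME1 to PSME2 (0.684, 0.715 and 0.663 against 0.668, 0.727 and 0.608) overlapped too.

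**Figure D4:**
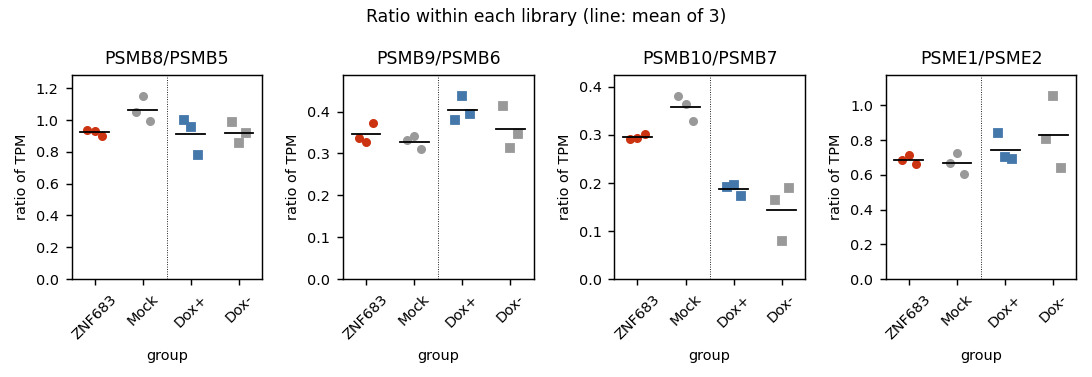
Ratio of TPM within each library (y axis, from 0) for 3 inducible subunits over their constitutive counterparts and for PSME1 over PSME2, by group (x axis); points are libraries and lines the mean of 3. PSMB8/PSMB5 and PSMB10/PSMB7 lie lower in all libraries labelled ZNF683 than in all Mock libraries, and the 4 ratios overlap between Dox+ and Dox-.

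The 7 assembly chaperones were divided, with 4 above zero and a median of 0.02. PSMG3, a chaperone of the alpha ring, had the largest change, at 89.2, 113 and 116 TPM against 121, 165 and 114 TPM (-0.32 ± 0.17, adjusted p = 0.429, limma). Mock 2 was the highest and ZNF683 1 the lowest. PSME3, the nuclear activator PA28 gamma, measured 250, 238 and 185 TPM against 152, 157 and 225 TPM (0.34 ± 0.18, adjusted p = 0.433, limma), with the same overlap of the third libraries as the regulatory particle. PSMA8, the germ cell form of an alpha subunit, measured 23.0, 24.1 and 19.3 TPM against 17.4, 19.7 and 20.3 TPM (0.20 ± 0.12), with overlap.

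In Dox+ against Dox- no PSM gene passed the threshold either (smallest adjusted p = 0.725, PSMB10, limma), where 0.396% of all 15148 genes tested did. Of the 47 genes, 46 were above zero, with a median log2 change of 0.51. The whole table leaned the same way: 11975 of 15148 genes were above zero, with a median of 0.32, which median-of-ratios scaling lowered to 0.13. Against the median of all genes, 43 of 47 PSM genes were higher, and 41 of 47 after that scaling, when their median was 0.28. The core had a median of 0.54 (14 of 14 above zero), the regulatory particle 0.51 (17 of 17), the immunoproteasome 0.64 (5 of 5) and the assembly chaperones 0.43 (7 of 7). The median over all 47 genes was 0.20 without Dox- 1 and 0.86 without Dox- 3. Unadjusted p was under 0.05 for 1 gene, PSMB10, where 4.69% of all genes were so called and higher. With median-of-ratios scaling it was under 0.05 for 0 of 47, where 251 of 15148 genes were so called and higher.

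Groups did not overlap for 1 of 47 genes, PSMG2, a chaperone of the alpha ring (116, 109 and 111 TPM against 57.7, 93.7 and 104 TPM), where 7.91% of all genes were higher without overlap and 0.891% lower. After median-of-ratios scaling 0 of 47 were, against 9.34% of all genes. PSMG2 and PSMB10 each met 1 of these rules, which smaller shares of PSM genes met than of all genes, and neither passed the adjusted threshold.

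With median-of-ratios scaling, the Dox- libraries spread more than the Dox+ libraries, mainly through Dox- 2. On that scale the 47 genes deviated from their own means by 0.01, 0.08 and 0.36 in Dox+ 1 to 3 and by -0.05, -0.59 and 0.20 in Dox- 1 to 3. Dox- 2 was the lowest library and Dox- 3 was above Dox+ 1 and Dox+ 2. For the 5 immunoproteasome genes Dox- 2 stood at -0.79 and Dox- 3 at 0.24, against 0.08, 0.14 and 0.38 in Dox+. Dox- 2 is also the library with high HSPA6, and the part of that in the result was not tested. With median-of-ratios scaling and without Dox- 2, an alternative chosen after seeing the data, the immunoproteasome median was 0.07, the core 0.10 and the regulatory particle 0.06, where all genes had 0.04. Without Dox- 3, on TPM as deposited, 17 of 47 PSM genes passed the threshold, among 2788 genes in all. With no library left out, 15148 genes were tested. That fit without Dox- 3 kept Dox- 1, with 50.7% of its TPM in AL135790.1, and Dox- 2. Their part in the calls was not tested.

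**Figure D5:**
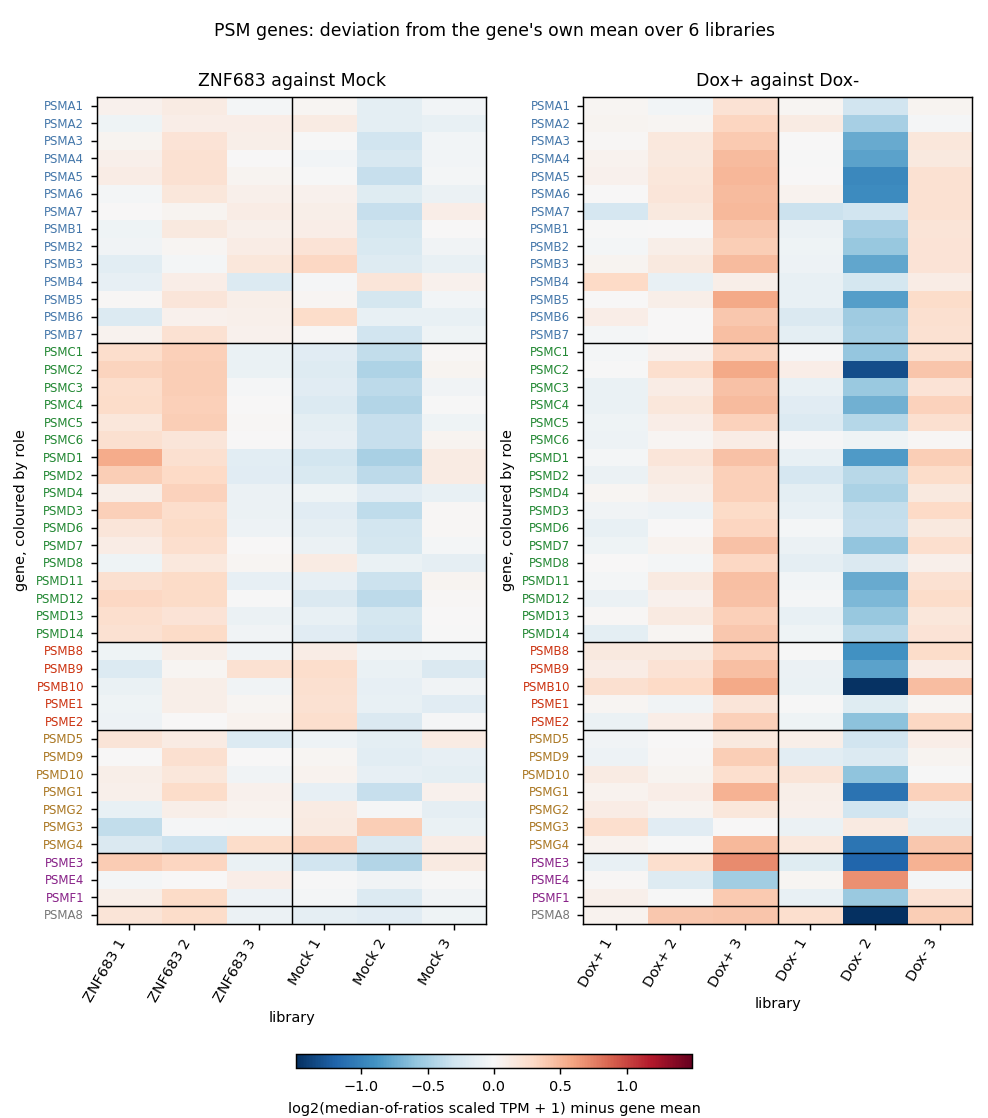
Deviation of each tested PSM gene (rows, coloured by role) from its own mean over the 6 libraries of its table (columns), in log2 of the median-of-ratios scaled TPM + 1. Regulatory particle genes are high in ZNF683 1 and 2 and low in Mock 2, and nearly all genes are low in Dox- 2 (mean -0.59) and high in Dox+ 3 (mean 0.36).

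PSMB10 had the largest change, at 70.1, 72.0 and 81.2 TPM in Dox+ and 28.3, 22.2 and 84.6 TPM in Dox- (0.96 ± 0.43, unadjusted p = 0.0258 by limma). With median-of-ratios scaling its unadjusted p by limma was 0.15. Dox- 3 was above every Dox+ library. PSMB8 measured 184, 182 and 194 TPM against 85.1, 95.0 and 209 TPM (0.64 ± 0.43), and here too Dox- 3 was highest. PSMB9 measured 160, 169 and 186 TPM against 70.9, 90.8 and 166 TPM (0.74 ± 0.43), with Dox- 3 inside the Dox+ range. These orders are for TPM as deposited. With median-of-ratios scaling Dox- 3 was below Dox+ 3 for PSMB10 (71.7 against 77.3), PSMB8 (177 against 185) and PSMB9 (140 against 177).

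Their constitutive counterparts followed the same libraries. PSMB5 measured 184, 191 and 248 TPM against 86.5, 111 and 228 TPM (0.66 ± 0.43). PSMB6 measured 420, 387 and 474 TPM against 171, 290 and 477 TPM (0.56 ± 0.43). PSMB7 measured 365, 366 and 468 TPM against 171, 280 and 448 TPM (0.51 ± 0.43). In each, Dox- 1 and Dox- 2 were below all Dox+ libraries and Dox- 3 was not. PSME1 measured 359, 334 and 368 TPM against 179, 334 and 371 TPM (0.33 ± 0.43, and 0.0063 without Dox- 1). PSME2 measured 427, 476 and 532 TPM against 222, 318 and 581 TPM (0.47 ± 0.43), again with Dox- 3 highest. With median-of-ratios scaling PSME2 stood at 492 in Dox- 3, below the 507 in Dox+ 3.

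The 4 ratios within a library overlapped between Dox+ and Dox-, where 7.03% of the 1081 pairs did not. PSMB10 to PSMB7 was 0.192, 0.196 and 0.174 in Dox+ and 0.165, 0.0793 and 0.189 in Dox-, with Dox- 2 far below the rest. PSMB8 to PSMB5 was 1.00, 0.953 and 0.782 against 0.984, 0.857 and 0.916. PSMB9 to PSMB6 was 0.380, 0.436 and 0.393 against 0.414, 0.313 and 0.347. PSME1 to PSME2 was highest in Dox- 2, at 1.05, and lowest in Dox- 3, at 0.638.

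Largest in their subgroups were also PSMC2 of the base (117, 137 and 159 TPM against 63.7, 49.2 and 160 TPM, 0.77 ± 0.43) and PSME3 (122, 154 and 199 TPM against 59.1, 61.9 and 195 TPM, 0.79 ± 0.43). PSMA5 of the alpha ring measured 136, 143 and 168 TPM against 66.4, 71.0 and 157 TPM (0.71 ± 0.43). On TPM as deposited, Dox- 1 and Dox- 2 were below all Dox+ libraries in all 3 and Dox- 3 was not; with median-of-ratios scaling PSMC2 stood at 109 in Dox- 1, above the 102 in Dox+ 1. PSMA8 (0.80 ± 0.43), PSMG1, an alpha ring chaperone (0.67 ± 0.43), PSMB3 of the beta ring (0.66 ± 0.43), PSMD1 (0.61 ± 0.43), the lid subunit PSMD11 (0.60 ± 0.43) and PSMD10, gankyrin (0.50 ± 0.43), led the other subgroups. PSMA7, the gene with the highest level, measured 830, 1074 and 1264 TPM against 403, 870 and 1195 TPM (0.47 ± 0.42). Its change was 0.029 without Dox- 1 and 0.81 without Dox- 3. PSME4 alone had a value below zero, at 7.93, 6.55 and 4.69 TPM against 4.08, 14.1 and 7.86 TPM (-0.28 ± 0.42), with Dox- 2 highest.

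The difference between both effects, (ZNF683 minus Mock) minus (Dox+ minus Dox-), passed the threshold for 0 of 47 PSM genes (smallest adjusted p = 0.876, limma), where 0.0138% of 14468 genes did. It was below zero for 46 of 47, where 11693 of 14468 genes were, with a median of -0.41 against -0.28 over all genes. These values are for TPM as deposited. PSMB10 had the largest difference, -1.05 ± 0.49 (unadjusted p = 0.045 by limma, the 1 PSM gene under 0.05).

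Genes that work with the proteasome gave few calls. In the libraries labelled ZNF683 against Mock, 12 of 14 genes that deliver substrates were above zero (median 0.24), led by UFD1 (0.34 ± 0.11, adjusted p = 0.328, limma) and UBQLN4 (0.46 ± 0.15), and 9 of 13 ubiquitin-activating and chain-forming enzymes were (0.08), led by UBE2N (0.37 ± 0.12) and UBE2L3 (0.22 ± 0.10). Of 10 proteasome genes without a PSM symbol 7 were above zero (0.09), with SEM1 at -0.39 ± 0.23 and ADRM1 at 0.24 ± 0.15. None of these 3 lists held a gene past the threshold. The NFE2L1 list, for the factor that raises proteasome genes when proteasome activity is low, had 7 of 8 above zero (0.11; DDI2 0.30 ± 0.19, SYVN1 0.21 ± 0.13).

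The interferon list had 3 of 9 above zero (-0.01; IFNGR1 0.27 ± 0.11, IRF9 -0.19 ± 0.16), and 6 of 9 with median-of-ratios scaling. The MHC class I peptide supply list had 9 of 12 (0.11; PDIA3 0.33 ± 0.16, CALR 0.28 ± 0.17), with no gene past the threshold in either list. Among inducible chaperones 6 of 9 were above zero (0.12), and HSPA6 was the 1 gene of these lists past the threshold, at 0.515, 0.399 and 0.618 TPM against 6.85, 5.88 and 4.06 TPM (-2.11 ± 0.18, adjusted p = 0.0105, limma). It averaged 0.511 TPM under the ZNF683 label and so was tested only through its level in Mock, and its adjusted p by limma ranged from 0.00383 with robust fitting to 0.122 without ZNF683 2. HSPA1B had -0.52 ± 0.14 (adjusted p = 0.283, limma). Of the T cell markers 8 of 10 were above zero (0.13; PTPRC 0.42 ± 0.13, TAL1 0.39 ± 0.13), and of 3 tested markers of other cells 1 was (-0.20; COL1A1 -0.21 ± 0.17, KRT8 -0.20 ± 0.19).

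In Dox+ against Dox- most genes of 7 lists were above zero, as were most genes of the table, and most inducible chaperones and markers of other cells were below it. Of those below it, HSPA6, HSPA1A, COL1A1 and HBA1 were tested only through Dox- 2. Above zero were 13 of 14 delivery genes (0.42; VCP 0.71 ± 0.43, UBQLN4 0.67 ± 0.42), 12 of 13 enzymes (0.43; UBE2N 0.81 ± 0.43, UBE2D1 0.66 ± 0.43) and 10 of 10 proteasome genes without a PSM symbol (0.46; PAAF1 0.66 ± 0.43, ADRM1 0.56 ± 0.43, and 0.090 without Dox- 1). So were 6 of 8 on the NFE2L1 list, of which 1 was above the median of all genes (0.11; MAFF -0.78 ± 0.43, NFE2L1 0.44 ± 0.43). The NFE2L1 list had 2 of 8 above zero with median-of-ratios scaling. All 9 interferon genes were above zero (0.36), with IFNGR2 at 0.81 ± 0.43. IRF1, a factor that induces immunoproteasome genes, measured 106, 106 and 93.4 TPM against 39.9, 38.8 and 87.6 TPM (0.97 ± 0.43, adjusted p = 0.722, limma). IRF1 and IFNGR2 were the 2 of 9 higher without overlap on TPM as deposited, where 7.91% of all genes were.

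All 12 MHC class I peptide supply genes were above zero (0.48), with ERAP2 at 0.81 ± 0.43 and TAP1 at 0.64 ± 0.43. Of the inducible chaperones 7 of 10 were below zero (median -0.54). HSPA6 (-2.99 ± 0.40), HSPA1A (-1.68 ± 0.39) and HSPA1B (-1.76 ± 0.42) were past the threshold on TPM as deposited. With median-of-ratios scaling none was (adjusted p = 0.688 for each, limma, with an SE of 2.18 for HSPA6). All 3 were high in Dox- 2 alone, at 637, 37.0 and 562 TPM, and at most 0.341, 0.455 and 6.93 TPM in the other 2 Dox- libraries, where Dox+ reached 0.351, 0.361 and 8.09 TPM. HSPA6 and HSPA1A were thus tested only through Dox- 2, and HSPA1B changed sign without it (0.46). All 10 T cell markers were above zero (0.71; TAL1 1.03 ± 0.43, CD3D 1.01 ± 0.42), and of 4 tested markers of other cells 1 was (-0.53; PECAM1 1.15 ± 0.43, COL1A1 -0.94 ± 0.40). Dox- 2, in which the PSM genes were lowest with median-of-ratios scaling, stood apart in these markers too. COL1A1 (17.0 TPM) and HBA1 (19.5 TPM) were high there alone, and so were tested only through Dox- 2. PECAM1 was lowest there, at 11.5 TPM against 36.4 TPM in the next library. The summed level of the 10 markers of other cells was 76.0 to 80.3 TPM in Dox+ and 38.2 to 85.7 TPM in Dox-. PECAM1 made up most of it in every library but Dox- 2. The part of these markers in the PSM values was not tested.

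Shared reads may limit some members. In the GENCODE annotation 25 of the 48 genes overlap a gene on the opposite strand, among them PSMB8 and PSMB9, which overlap each other. On the same strand 13 overlap another gene, and 12 have annotated pseudogenes, 32 in all. Overlaps were taken over whole gene spans, introns included. Whether the quantification used strand is not given in the sources used here, so reads of pairs on opposite strands may have been shared. The sharing of reads was not measured.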

How the data were processed

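RNA of 12 Jurkat libraries, 3 per group, was measured in 2 tables. The values are TPM, deposited by the authors; kallisto 0.46.0 and DESeq2 1.22.2 are named in the submitters' processing notes, and the build and annotation are not given in the sources used here. Each table was fitted alone with limma 3.58.1 (R 4.3.3; trend) on log2(TPM + 1), for genes averaging 1 TPM or more, with Benjamini-Hochberg adjustment over all genes and a threshold of 0.05. Fold changes on this scale understate those of low genes. In the second table, as deposited, the fit's prior degrees of freedom were infinite. Each SE and p-value there came from the trend over genes and does not measure a gene's own spread. With 3 against 3 libraries an exact permutation test cannot go below p = 0.1. The difference was a contrast over all 12 libraries. The code was tested on simulated data in which each gene varied independently. Those data held no library-wide shifts such as those of Dox- 1 and Dox- 2, so the test does not cover them. Transcript lengths, gene positions and overlaps came from GENCODE v29.

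Members and gene lists were chosen with earlier results of these data known. Named with values were the immunoproteasome genes and their counterparts, the largest change in each subgroup, the highest and lowest levels, members past the threshold, and the 2 smallest p in each list. One gene list is not reported here. PSMC3, PSMC5, PSMD8, PSMA2, PSMG2 and PSME4 were named after their values were seen. Alternatives were another scaling, pseudocount and filter, robust fitting, AL135790.1 or a library left out, the replicate block, and, added after seeing the data, removal of the length trend and scaling without Dox- 2.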

Additional observations from a re-analysis of the deposited data

How the results depend on the processing

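In ZNF683 against Mock no PSM gene passed the threshold under any alternative run. In Dox+ against Dox- 17 of 47 did without Dox- 3, among 2788 genes in all. In the difference between both effects 17 of 47 did without Dox- 3, among 2550 genes in all, and these were not all the same PSM genes. Under every other alternative 0 PSM genes passed. With no library left out, 15148 genes were tested in Dox+ against Dox- and 14468 in the difference. Counts over all genes moved. For ZNF683 against Mock, 5 genes became 3 with a pseudocount of 0.1, 0 without a filter, 0 with a mean of at least 5 TPM, 8 with robust fitting, 0 with the replicate block, and 0 to 49 with 1 library left out (0 without Mock 2, 49 without ZNF683 1). For Dox+ against Dox-, 60 became 1 with median-of-ratios scaling (also without Dox- 2), 0 without a filter, 15 with a mean of at least 5 TPM, 23 with robust fitting, 34 with the replicate block, 0 with AL135790.1 left out, 0 with the length trend removed, and 0 to 2788 with 1 library left out (0 without Dox- 1, 2788 without Dox- 3). For the difference, 2 became 1 with median-of-ratios scaling, with AL135790.1 left out or with the length trend removed, 60 with the replicate block, and 1 to 2550 with 1 library left out. Whether the replicate numbers pair the libraries is not settled, and the main fits used no pairing. Same-numbered libraries had correlations of -0.211, 0.0679 and -0.252 in the first table, where differently numbered ones reached 0.306. In the second table same-numbered libraries had 0.0763, 0.0546 and 0.362, and differently numbered ones -0.328 to 0.196.

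The median of all PSM genes in ZNF683 against Mock ranged from 0.070 (without ZNF683 2) to 0.18 (without Mock 3). Of the 5 immunoproteasome genes, 2 were above zero with median-of-ratios scaling or the length trend removed, and 0 to 2 with 1 library left out. In Dox+ against Dox- their median was 0.070 with that scaling and without Dox- 2. Reversed in ZNF683 against Mock were PSMB9 (0.035 with scaling, 0.090 with the length trend removed, -0.13 to 0.095 with 1 library left out), PSME1 (0.032, 0.023, -0.081 to 0.046) and PSMB6 (0.00282 with the length trend removed, -0.15 to 0.00572). Reversed in Dox+ against Dox- were PSME1 (-0.016 with the length trend removed), PSME2 (-0.00719), PSMA8 (-0.018), HSPA1B (0.13) and UBE2D1 (-0.066), the last 4 with scaling and without Dox- 2. HSPA1B ranged from -3.12 to 0.46 with 1 library left out. The cause was not tested.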
